A study of Homo sapiens with 4 samples.

Results

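The expressed solute carriers of H9, a widely used line of human embryonic stem cells, are described here across 4 RNA-seq libraries. Members were chosen by symbol and by level. A gene was taken if its symbol had the form SLC, a family number, A and a member number, and if its mean over the 4 libraries was at least 5 TPM, the share of transcripts of a gene per length, scaled to a common total. SLC2A1, SLC2A3, SLC16A1 and SLC16A3, the main glucose and lactate carriers, were left out by the rule. This gave 102 members of 60671 genes in the table, from 338 genes with such a symbol. Since level in these libraries chose the members, their levels are a description. Families whose symbols carry another letter, such as SLC35B or SLCO, were not counted.

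The control group was 2 libraries labelled as control H9. The other group, called KO+OE here, was 2 libraries of H9 cells with an edited CFIm25 gene and an added 3Flag-CFIm25, a tagged copy of the protein. All cells were grown in mTeSR medium with no treatment, and RNA with a poly(A) tail was sequenced. Edited cultures in the study had first been selected with puromycin and cloned. The study names mock control cells for its RNA-seq of re-expressing cells, and describes mock controls as clones that had received the empty editing vector. The titles do not say whether the control libraries here came from such clones. Effects of editing, cloning, selection and vector therefore cannot be told apart here. CFIm25 is a subunit of the complex that helps to choose the cleavage and polyadenylation site of a transcript. The study derived its re-expressing cells by lentivirus from 1 edited clone, in which a shortened CFIm25 protein remained at a low level, and the edited line before rescue is not analysed here. The question of the comparison is how close the carriers of the re-expressing line stood to those of control cells. The labels do not say whether replicates came from separate cultures, so p-values measure only the spread between these libraries.

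Solute carriers are membrane proteins that move nutrients, metabolites and ions, either down a gradient or coupled to a second solute. Those of the plasma membrane set which amino acids, sugars, vitamins and metals a cell can take up. The SLC25 family sits mainly in the inner mitochondrial membrane, where it exchanges ADP for ATP and carries phosphate, carboxylates, amino acids and cofactors. Growing pluripotent stem cells are known for high uptake of glutamine and other amino acids.

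NUDT21, the gene that encodes CFIm25, measured 161 and 152 TPM (control) against 162 and 157 TPM (KO+OE), with overlapping groups. The table gives 1 value for the gene, in which the edited gene and the added copy cannot be told apart, so it does not check the labels. The 6 pluripotency markers summed to between 3166 and 3202 TPM in each library. POU5F1 had the highest mean of the 6, 2189 TPM, and NANOG and SOX2 the lowest, 17.8 and 18.7 TPM. Of the germ layer markers, 7 of 8 had a mean under 1 TPM, with GATA6 at 4.35 to 8.39 TPM as the exception. Of 6 fibroblast markers, COL1A1 was at 53.9 to 55.6 TPM and COL1A2 at 13.0 to 14.5 TPM, while COL3A1, DCN and LUM were at 0.08 TPM or less. Between 12179 and 12332 genes were at 1 TPM or more. Transcripts of the mitochondrial genome took 21.0% and 21.1% of the total in control and 21.6% and 22.1% in KO+OE. Their part in the differences below was not tested, and values after rescaling are given beside those it moves. The values carry no read numbers, so the depth is unknown.

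The members covered a wide range of levels, and a few mitochondrial carriers dominated. Of the 338 SLC genes, 38 were listed at 0 in every library, 131 were above 0 with a mean under 1 TPM, 63 had a mean from 1 to 5 TPM and 106 reached 5 TPM, from which the 4 glucose and lactate carriers were removed. Among the 102 members, 32 lay under 10 TPM, 53 from 10 to 50 TPM, 6 from 50 to 100 TPM and 11 at 100 TPM or more. Together the members summed to 7570 and 7462 TPM in the control libraries and to 7489 and 7354 TPM in the KO+OE libraries. The 21 SLC25 genes held 64.1% of this sum as a mean over the 4 libraries, and SLC25A6, SLC25A3 and SLC25A5 alone held 53.7%.

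The share of genes that reached 5 TPM differed between substrate groups. Over all 338 SLC genes, the 4 omitted ones included, it was 31.4%. It was 43.8% of 48 SLC25 genes, 34.4% of 32 metal transporters and 32.2% of 59 amino acid and peptide transporters. For vitamins and nucleosides it was 38.1%, for lipids and choline 35.0%, for mono- and dicarboxylates 33.3% and for sugars 28.6%. The unclassified genes had 42.9%. It was 21.8% of 55 transporters of inorganic ions and 16.7% of 36 transporters of organic ions and neurotransmitters. Just inside the threshold lay SLC12A8, SLC49A3 and SLC66A3 with means of 5.60, 5.32 and 5.30 TPM, and just outside lay SLC15A4, SLC2A11 and SLC37A3 with means of 4.97, 4.96 and 4.84 TPM.

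**Figure D1:**
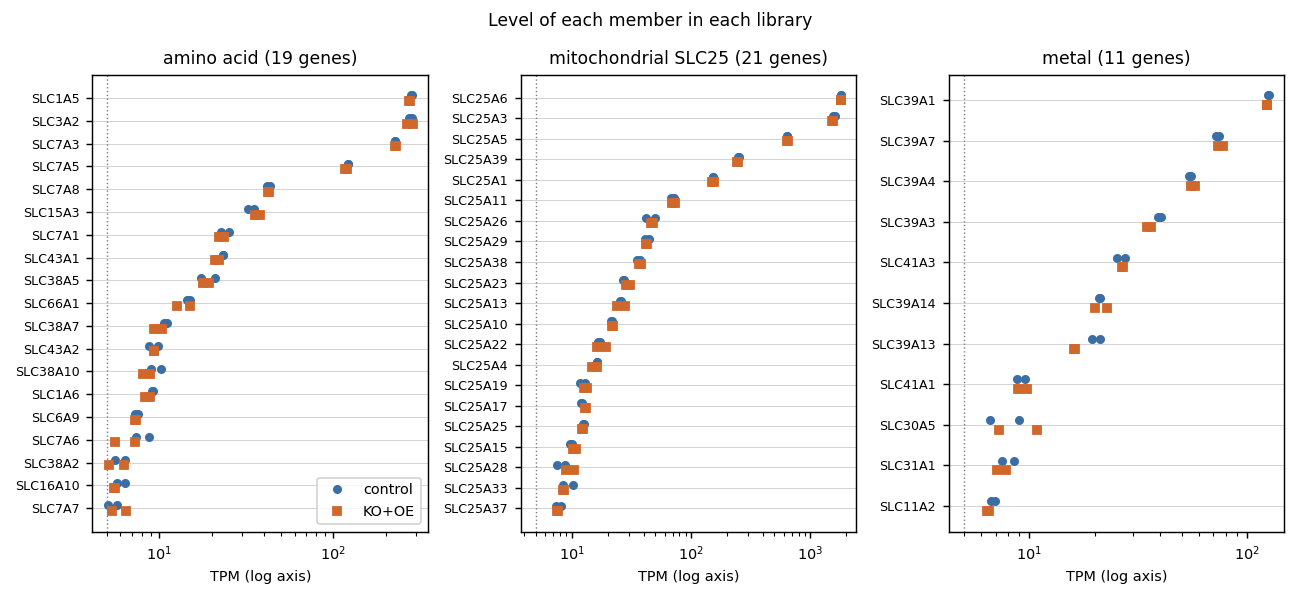
Level of each amino acid, SLC25 and metal member (rows) in each library, in TPM on a log axis, with circles for the 2 control and squares for the 2 KO+OE libraries and a dotted line at 5 TPM. The levels span from near the threshold to 1808 TPM for SLC25A6, and for most genes the 4 points lie close together.

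By transcript level, 4 genes led the amino acid members. SLC1A5, SLC3A2, SLC7A3 and SLC7A5 together held 79.9% of the summed level of the 19 amino acid members, as a mean over the 4 libraries. SLC1A5 (ENSG00000105281; chromosome 19, 46774883 to 46788594, RefSeq on GRCh38.p14) encodes a sodium-dependent exchanger of glutamine and other neutral amino acids. It measured 283 and 278 TPM (control) against 274 and 271 TPM (KO+OE). Both KO+OE values lay below both control values, and the log2 fold change had a 95% confidence interval of -0.12 to 0.04.

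SLC3A2 (chromosome 11, 62856109 to 62888860) encodes the heavy chain that carries light chains of the SLC7 family to the cell surface. Its levels were 283 and 271 TPM in control and 286 and 266 TPM in KO+OE, so that the groups overlapped. SLC7A5 (chromosome 16, 87830023 to 87869507), the light chain that exchanges large neutral amino acids such as leucine, measured 122 and 122 TPM (control) against 120 and 117 TPM (KO+OE). SLC7A8, a light chain with a related range of substrates, measured 43.2 and 41.4 TPM (control) against 42.8 and 42.3 TPM (KO+OE). The light chains for cationic and neutral amino acids were low, with means of 7.23 TPM for SLC7A6 and 5.67 TPM for SLC7A7. Of the light chains that were no members, SLC7A10 had a mean of 1.81 TPM, and SLC7A11, which exchanges cystine for glutamate, measured 0.51 and 0.47 TPM (control) against 0.52 and 0.53 TPM (KO+OE).

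Transcript levels of heavy and light chains were set against each other within each library, which does not measure the proteins. The 6 light chains summed to 0.635 and 0.666 of the SLC3A2 level in the control libraries and to 0.626 and 0.648 in the KO+OE libraries. SLC7A5 made up between 67.0% and 68.0% of the light chain sum in every library, and SLC7A8 between 23.0% and 24.5%. The exact permutation test of the ratio, two-sided, gave p = 0.667, and with 2 libraries against 2 it cannot give less than 0.333.

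Cationic amino acids had a dedicated carrier at a high transcript level. SLC7A3 (chromosome X, 70925579 to 70931096), which takes up arginine and lysine, measured 225 and 225 TPM (control) against 228 and 226 TPM (KO+OE). Its relative SLC7A1 was lower, with a mean of 23.3 TPM. The sodium-coupled SLC38 carriers of glutamine and small neutral amino acids were modest, with 4 members between 5.85 TPM for SLC38A2 and 18.9 TPM for SLC38A5, and SLC38A1 stayed outside with a mean of 3.87 TPM. Among the others with a lysosomal role, SLC15A3, a transporter of peptides and histidine, had a mean of 35.3 TPM and SLC66A1, which exports cationic amino acids, one of 14.3 TPM. Exons of SLC15A3 overlap those of TMEM132A on the opposite strand, at a mean of 27.75 TPM.

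Between the groups, the 19 amino acid members summed to 1145 and 1121 TPM in control and to 1133 and 1101 TPM in KO+OE, a difference of -1.39% (exact permutation test, two-sided, p = 0.667). The difference was -0.518% after rescaling by median ratios, and it lay between -2.79% when KO+OE replicate 1 was left out and 0.0101% when KO+OE replicate 2 was, where its sign turned. None passed an adjusted p of 0.05 in limma and 0 had an unadjusted p under 0.05. The median log2 fold change was -0.04, beside -0.01 over all genes tested. In 8 members both KO+OE values lay below both control values, and in 2 both lay above, which are 42.1% and 10.5% of the 19, beside 19.6% and 14.5% of all genes tested. After rescaling by median ratios the 8 became 6, or 31.6%, beside 17.1% of all genes. The highest log2 fold change of the list was 0.12 for SLC15A3 and the lowest -0.30 for SLC7A6. Leaving out 1 library moved them to between 0.06 (without control replicate 2) and 0.18 (without control replicate 1) for SLC15A3 and between -0.46 (KO+OE replicate 1 left out) and -0.13 (KO+OE replicate 2 left out) for SLC7A6. SLC7A6 measured 7.33 and 8.80 TPM (control) against 7.24 and 5.55 TPM (KO+OE), groups that almost met without overlap, and limma gave an adjusted p = 0.932. Its exons overlap those of SLC7A6OS on the opposite strand, which had a mean of 6.86 TPM.

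Of the genes that sense or respond to amino acid supply, all 16 listed were tested and none passed an adjusted p of 0.05 in limma. ATF4, a transcription factor that raises amino acid transporter genes under shortage, measured 345 and 365 TPM (control) against 356 and 371 TPM (KO+OE). ASNS, which makes asparagine, measured 180 and 183 TPM (control) against 192 and 185 TPM (KO+OE). An unadjusted p under 0.05 was reached by 1 of the 16, beside 5.33% of all genes tested. This was MTOR, the kinase of a growth pathway that reads amino acid supply. It measured 14.3 and 14.5 TPM (control) against 16.8 and 16.8 TPM (KO+OE), with an adjusted p = 0.928 from limma.

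The mitochondrial carriers were led by those of ATP synthesis. SLC25A6 (ENSG00000169100; chromosome X, 1386152 to 1392113) encodes an ADP/ATP carrier and lies in the pseudoautosomal region. It measured 1808 and 1811 TPM (control) against 1808 and 1804 TPM (KO+OE), with a coefficient of variation of 0.166% over the 4 libraries, the lowest of the 102 members. SLC25A5 (chromosome X, 119468444 to 119471396), a second ADP/ATP carrier, measured 639 and 634 TPM (control) against 651 and 635 TPM (KO+OE). SLC25A4, the form known from heart and muscle, had a mean of 15.9 TPM, and SLC25A31, known from testis, was listed at 0 in every library. Of the summed ADP/ATP carriers, SLC25A6 took 73.0% to 73.6% and SLC25A5 25.8% to 26.3% in each library. The table has rows for 9 pseudogenes of SLC25A5 and 6 of SLC25A6, all listed at 0. How reads from such copies were assigned is not given in the sources used here.

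SLC25A3 (chromosome 12, 98593686 to 98606367), which imports the phosphate for ATP synthesis, measured 1627 and 1562 TPM (control) against 1552 and 1510 TPM (KO+OE). Both KO+OE values lay below both control values, but the control libraries stood farther apart than the lower control and the higher KO+OE library. The log2 fold change, -0.06, had a 95% interval from -0.14 to 0.02 and an adjusted p = 0.932 from limma. It was -0.029 without control replicate 1, -0.088 without control replicate 2, -0.039 without KO+OE replicate 2 and -0.032 with quantile normalization.

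The next carriers by level served glutathione, citrate and carboxylates. SLC25A39, a glutathione carrier, measured 247 and 251 TPM (control) against 241 and 249 TPM (KO+OE). SLC25A1, which exports citrate for lipid synthesis, measured 153 and 153 TPM (control) against 157 and 150 TPM (KO+OE). SLC25A11, the oxoglutarate and malate carrier, had a mean of 71.0 TPM, and its exons overlap those of RNF167, at 180 TPM on the opposite strand. SLC25A26, which brings in the methyl donor S-adenosylmethionine, had a mean of 46.4 TPM, and SLC25A38, a glycine carrier needed for haem synthesis, one of 36.9 TPM. SLC25A29, for basic amino acids, had a mean of 42.5 TPM and SLC25A23, which exchanges ATP-Mg for phosphate, one of 28.4 TPM. The mitochondrial iron importers were lower, with means of 8.95 TPM for SLC25A28 and 7.63 TPM for SLC25A37.

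Between the groups, the 21 SLC25 members summed to 4856 and 4779 TPM in control and to 4795 and 4730 TPM in KO+OE, a difference of -1.15% (exact permutation test, two-sided, p = 0.667). Rescaling by median ratios brought it to -0.265%, and leaving out 1 library gave -1.93% at the lowest (control replicate 2 left out) and -0.350% at the highest (control replicate 1 left out). None passed an adjusted p of 0.05 in limma and 0 had an unadjusted p under 0.05. The median log2 fold change was 0.01, and it turned to -0.0019 without KO+OE replicate 1. Both KO+OE values lay above both control values in 5 members (23.8%, beside 14.5% of all genes) and below in 2 (9.52%, beside 19.6%). After rescaling by median ratios the 5 became 8, or 38.1%, beside 17.0% of all genes. The range of log2 fold changes ran from -0.11 for SLC25A33, a carrier of pyrimidine nucleotides, to 0.23 for SLC25A28. SLC25A28 measured 8.85 and 7.47 TPM (control) against 8.96 and 10.5 TPM (KO+OE), with an adjusted p = 0.937. Its fold change was 0.12 without control replicate 2 or KO+OE replicate 2 and 0.34 and 0.33 without control replicate 1 and KO+OE replicate 1. SLC25A33 measured 10.3 and 8.42 TPM (control) against 8.63 and 8.42 TPM (KO+OE), and its fold change turned to 0.02 without control replicate 1.

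Of 12 mitochondrial carriers whose symbols lie outside the rule, 9 were tested. MTCH1 and MTCH2, relatives of the SLC25 family in the outer membrane, had means of 184 and 66.2 TPM, and the uncoupling protein UCP2 had one of 47.0 TPM. MPC1 and MPC2, which together form the pyruvate carrier, had means of 6.46 and 12.4 TPM. None of the 9 passed an adjusted p of 0.05 in limma, and 0 had an unadjusted p under 0.05.

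**Figure D2:**
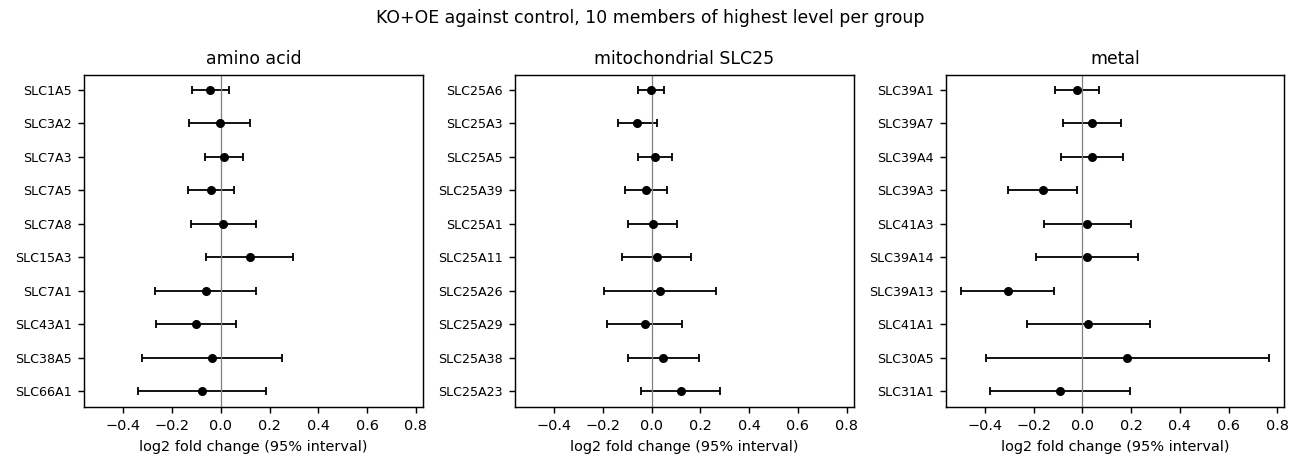
Log2 fold change of KO+OE against control on the log2(TPM + 1) scale, with limma's 95% confidence interval, for the 10 members of highest level in each of the 3 groups. Only the intervals of SLC39A3 and SLC39A13 exclude 0 before adjustment, and the widest is that of SLC30A5, from -0.40 to 0.77.

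Among the metal transporters, zinc importers of the SLC39 family took the upper ranks. SLC39A1 (chromosome 1, 153959110 to 153968184), a zinc importer of the cell surface, measured 125 and 126 TPM (control) against 123 and 124 TPM (KO+OE). Its exons overlap those of AL358472.7 on the same strand and CREB3L4 on the opposite strand, at means of 16.0 and 21.9 TPM. SLC39A7, which releases zinc from the endoplasmic reticulum, had a mean of 74.5 TPM, and SLC39A4, the importer known from the gut, one of 55.7 TPM. SLC39A14, which also carries iron and manganese, had a mean of 21.2 TPM.

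Exporters of zinc from the cytosol were low in comparison. SLC30A5, which loads zinc into the secretory pathway, was the only SLC30 member, at 9.0 and 6.58 TPM (control) against 10.9 and 7.25 TPM (KO+OE). SLC30A1, the exporter of the cell surface, measured 0.55 and 0.72 TPM (control) against 0.58 and 0.54 TPM (KO+OE). Summed over all genes of each family, SLC39 levels stood at 343.57 and 348 TPM (control) against 340.3 and 339 TPM (KO+OE), and SLC30 levels at 15.5 and 12.7 TPM (control) against 17.2 and 13.8 TPM (KO+OE). The magnesium transporters SLC41A3 and SLC41A1 had means of 26.5 and 9.25 TPM. The copper importer SLC31A1 had a mean of 7.73 TPM and the iron importer SLC11A2 one of 6.62 TPM. SLC40A1, the iron exporter ferroportin, was listed at 0.02 TPM in 1 control library and at 0 in the other 3.

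Between the groups, the 11 metal members summed to 391 and 394 TPM in control and to 390.03 and 385 TPM in KO+OE, a difference of -1.37% (exact permutation test, two-sided, p = 0.333, the smallest the design allows). None passed an adjusted p of 0.05 in limma. An unadjusted p under 0.05 was reached by 2, both lower in KO+OE, which is 18.2% of the 11, beside 5.33% of all genes tested and 3.06% in that direction. The median log2 fold change was 0.02, but it was negative in each fit that left out 1 library, from -0.07 without KO+OE replicate 1 to -0.01 without control replicate 2. Both KO+OE values lay below both control values in 4 of the 11 (36.4%, beside 19.6% of all genes) and above in 0 (beside 14.5%). After rescaling by median ratios 3 lay below (27.3%, beside 17.1%) and 1 above (9.09%, beside 17.0%), and after rescaling without genes of the mitochondrial genome 3 lay below (27.3%, beside 16.8%) and 2 above (18.2%, beside 17.1%).

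SLC39A13 (chromosome 11, 47407276 to 47416500), a zinc transporter of the secretory pathway known for its part in connective tissue, had the smallest p of the 2. It measured 19.4 and 21.0 TPM (control) against 16.1 and 16.2 TPM (KO+OE). The 2 KO+OE libraries were almost equal and both lay below control. Its log2 fold change, -0.31, had a 95% interval from -0.50 to -0.12, and limma gave an adjusted p = 0.928. Without control replicate 2 the fold change was -0.25 and the unadjusted p was above 0.05. SLC39A3 (chromosome 19, 2732524 to 2740076), a zinc importer of the cell surface, measured 39.01 and 40.4 TPM (control) against 34.6 and 36.1 TPM (KO+OE), without overlap. Its log2 fold change, -0.16, had a 95% interval from -0.31 to -0.02 and an adjusted p = 0.928. Its unadjusted p was above 0.05 in each fit that left out 1 library. Its exons overlap those of AC006538.2 on the same strand, at a mean of 12.4 TPM, and reads from the overlap cannot be told apart.

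The other genes of metal handling were compared from a list of 16, of which 13 were tested. None passed an adjusted p of 0.05 in limma and 2 had an unadjusted p under 0.05, both lower in KO+OE, as were 3.06% of all genes tested. FTH1, the heavy chain of the iron store ferritin, measured 3997 and 3745 TPM (control) against 3071 and 3245 TPM (KO+OE), with a log2 fold change of -0.29 and an adjusted p = 0.556. FTL, the light chain, measured 6409 and 6555 TPM (control) against 6389 and 6657 TPM (KO+OE), with overlapping groups. CCS, which hands copper to superoxide dismutase, measured 67.0 and 65.2 TPM (control) against 61.5 and 59.5 TPM (KO+OE), with a log2 fold change of -0.13 and an adjusted p = 0.928. TFRC, the receptor that takes up iron bound to transferrin, was at 2.9 to 3.46 TPM in all libraries.

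The remaining 51 members have other substrates, or for 6 of them none that was classified here. SLC29A1, a nucleoside transporter, was the highest at 187 and 187 TPM (control) against 183 and 179 TPM (KO+OE). The transporters SLC27A5 (fatty acids and bile acids), SLC37A4 (glucose 6-phosphate), SLC44A2 (choline) and SLC50A1 (sugars) had means of 56.7, 54.8, 54.5 and 49.6 TPM. SLC4A2, a chloride and bicarbonate exchanger, had a mean of 44.8 TPM. The vitamin carriers SLC5A6, for biotin and pantothenate, and SLC52A2, for riboflavin, had means of 44.7 and 40.7 TPM. Exons of SLC37A4 and SLC5A6 overlap those of TRAPPC4 and ATRAID on the opposite strand, at means of 42.9 and 80.8 TPM. SLC6A8 carries creatine and had a mean of 37.5 TPM, and SLC35A4 of the nucleotide-sugar family had one of 43.3 TPM.

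In this remainder 2 of 51 members had an unadjusted p under 0.05, beside 5.33% of all genes tested. SLC20A1 (chromosome 2, 112645939 to 112663825), a sodium-coupled phosphate importer, measured 12.6 and 12.4 TPM (control) against 15.3 and 14.9 TPM (KO+OE). Replicates of each group were close and all KO+OE values lay above control, with a log2 fold change of 0.25, a 95% confidence interval of 0.06 to 0.44 and an adjusted p = 0.928 from limma. SLC22A31 (chromosome 16, 89195761 to 89201678), an SLC22 family member given no substrate here, measured 7.06 and 7.95 TPM (control) against 5.65 and 5.75 TPM (KO+OE). Its log2 fold change was -0.34 with an adjusted p = 0.928. Leaving out 1 library ended the unadjusted call of SLC20A1 in each of the 4 fits, and that of SLC22A31 in 3 of the 4, all but that without control replicate 1.

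**Figure D3:**
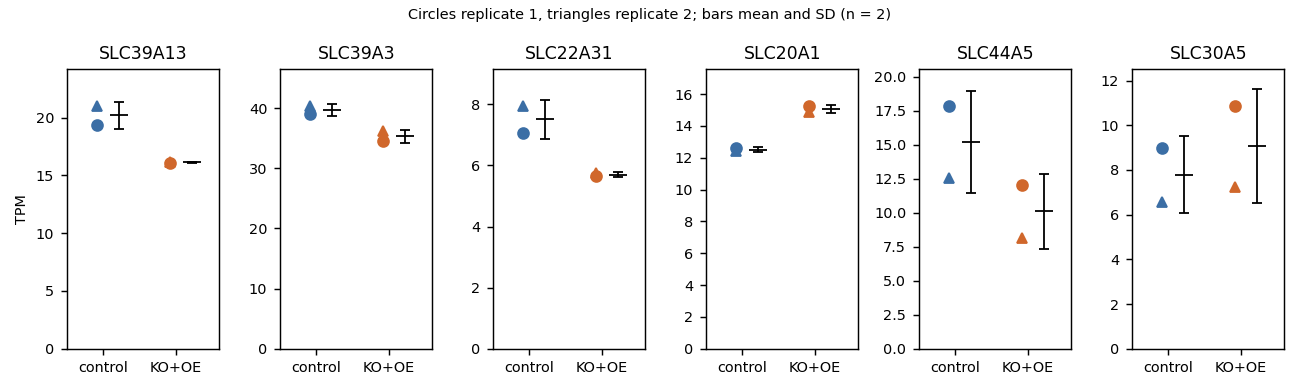
Level in TPM (axis from 0) of 6 members in the control and KO+OE libraries, with circles for replicate 1, triangles for replicate 2 and bars for the mean and SD of 2 libraries. SLC39A13, SLC39A3, SLC22A31 and SLC20A1 show groups apart with close KO+OE replicates, while in SLC44A5 and SLC30A5 replicate 1 exceeds replicate 2 in both groups.

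SLC44A5, a relative of the choline transporters, was singled out after its values had been seen, as the member with the lowest log2 fold change. It measured 17.9 and 12.6 TPM (control) against 12.1 and 8.17 TPM (KO+OE). Replicate 1 was the higher in both groups, and the highest KO+OE value came close to the lowest control value. The log2 fold change, -0.55, had a 95% interval from -1.15 to 0.05 and an adjusted p = 0.931 from limma. It was -0.79 without control replicate 2 and -0.80 without KO+OE replicate 1, both with an unadjusted p under 0.05, but -0.31 without control replicate 1 and -0.29 without KO+OE replicate 2, with unadjusted p of 0.291 and 0.308. With the replicate number as a block the unadjusted p was 0.00261, although same-numbered libraries did not deviate together over all genes (r = -0.049), and the smallest adjusted p of any member in that fit was 0.703. It had the highest coefficient of variation of the 102 members, 31.5%.

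Over all 102 members, none passed an adjusted p of 0.05 in limma, where 0.00812% of the 12319 genes tested did, and the smallest adjusted p of a member was 0.928. At an unadjusted p under 0.05 there were 4 members, or 3.92%, beside 5.33% of all genes tested and 5.68% of those that, like the members, reached 5 TPM. Higher in KO+OE was 1 of the 4 and lower were 3, where 2.26% and 3.06% of all genes tested were. Of the 4 calls, none held in every fit that left out 1 library, and some of those fits called other members. None of the 4 differed by more than 2-fold, a size which with that p was reached by 0.43% of all genes. Both KO+OE values lay below both control values in 28 members (27.5%, beside 19.6% of all genes and 20.6% of those at 5 TPM or more) and above in 11 (10.8%, beside 14.5% and 13.9%). After rescaling by median ratios these were 22 (21.6%, beside 17.1%) and 17 (16.7%, beside 17.0%). The median log2 fold change of the members was -0.03, and it was 0.0043 without control replicate 1. In 75 members the replicates of at least 1 group stood farther apart than the group means. That count was not computed over all genes, so it cannot be read as particular to the members.

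**Figure D4:**
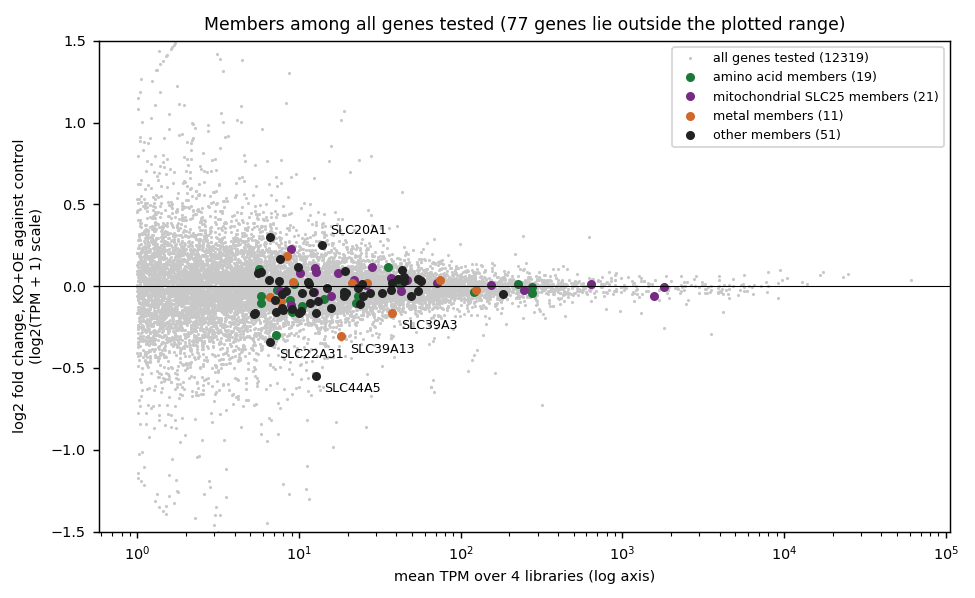
Log2 fold change of KO+OE against control on the log2(TPM + 1) scale against the mean TPM over 4 libraries (log axis), for all 12319 genes tested in grey and the 102 members in colour by group. The members lie within the cloud of genes of like level, between -0.55 and 0.30; 77 genes fall outside the plotted range.

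The spread between libraries limits the size of difference that could go unseen. The 95% confidence interval stayed inside 2-fold both ways for 101 members, all but SLC44A5, beside 92.6% of all genes tested and 97.8% of those at 5 TPM or more. It lay within 0.5 on the log2 scale for 95 members, beside 7584 of the 12319 genes tested and 6354 of the 7393 at 5 TPM or more. The median coefficient of variation over the 4 libraries was 5.72% for the members and 5.74% for all genes tested that reached 5 TPM. For the 11 members at 100 TPM or more the bounds lay between -0.14 and 0.12.

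Base composition of transcripts, which the rule did not use, differed between the members and the SLC genes under 5 TPM. All tested genes differed by level in the same direction. Canonical transcripts of the members had a median GC content of 58.0%, against 46.8% for the 232 SLC genes under 5 TPM, those under 1 TPM included. Among all tested genes the medians were 54.0% at 5 TPM or more and 47.7% from 1 TPM to under 5 TPM. Of the SLC genes of any level with a GC content under 40%, 4 of 49 reached 5 TPM, and of those at 60% or more, 40 of 64. In the 3 substrate groups for which it was computed the medians differed the same way, at 57.9% against 43.8% for amino acid transporters, 55.8% against 43.9% for SLC25 and 54.9% against 41.8% for metal transporters. Among SLC genes at 1 TPM or more, the share at 5 TPM or more was 23.5% in the lowest GC class and 85.1% in the highest. It did not rise at every step, with 61.9% and then 54.2% in the middle classes. Among all genes at 1 TPM or more, that share went up from class to class, from 31.4% to 72.8%.

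**Figure D5:**
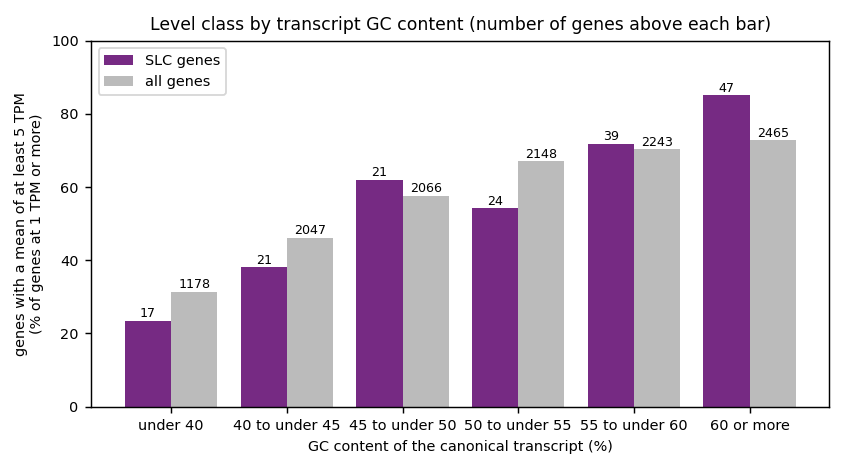
Share of genes that reach a mean of 5 TPM among those at 1 TPM or more, in percent, by GC content of the canonical transcript, for SLC genes and for all genes, with the number of genes above each bar. The share goes from 23.5% in the lowest class to 85.1% in the highest for SLC genes, with a fall from 61.9% to 54.2% between the middle classes.

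The named carriers had exceptions in both directions. Below the threshold, the GC content was 35.4% for SLC7A11, 41.3% for SLC38A1, 40.7% for SLC30A1 and 41.4% for SLC40A1, but 60.7% for SLC7A10. Among the members it was 61.3% for SLC1A5 and 60.7% for SLC25A6, but 37.4% for SLC38A2 and 38.4% for SLC30A5. SLC25A3, with a GC content of 43.5%, and SLC25A5, with 47.8%, were among the members of highest level. Within the members the Spearman correlation of level with GC content was 0.143 and with transcript length -0.313, across 102 genes of the same libraries, which are not independent replicates. The part of base composition in the levels was not tested.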

How the data were processed

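RNA-seq of poly(A)-selected RNA was available for 4 H9 libraries, grouped by sample title into control and KO+OE with 2 each. The submitters' processing notes name HISAT2, featureCounts (Subread), DESeq2 and hg38, with no roles given. The values the authors deposited, in 1 table with no unit in its header, were read as TPM (reads per gene length, scaled to a common total before deposit), since each column holds decimals and sums to between 986853 and 987078. They carry no depth, so no counting error was computed. There were 0 further columns of samples.

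The scale of all fits was log2(TPM + 1), which understates changes of low genes. A mean of 1 TPM or more was required and was met by 12319 genes. These were fitted with limma 3.58.1 in R 4.3.3 (mean-dependent prior, group as the only term, two-sided), with Benjamini-Hochberg adjustment over all of them. The fit was also tried on simulated data, with changes larger than any difference of the members. Summed levels were compared with exact permutation tests. Substrate groups were set by family, and members and lists were chosen with earlier results of these data known. Genes named were the 10 highest of each of the 3 groups and of the others, those at an unadjusted p under 0.05 without overlap, the largest difference in each direction per group, the 3 genes on either side of the threshold and a list fixed by role. Transcripts and exons were those of GENCODE 44 lifted to GRCh37, matched by identifier for all 102 members, and positions those of RefSeq on GRCh38.p14, matched by symbol for 101. The strand setting of the counting is not given in the sources used here, and exons of 36 members overlap those of another gene at 1 TPM or more. Alternatives were other pseudocounts, filters, scalings and priors, a replicate block and leaving out each library.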

Additional observations from a re-analysis of the deposited data

How the results depend on the processing

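The count of members past an adjusted p of 0.05 was 0 in each of the 13 alternatives tried, as was the count past 2-fold with an unadjusted p under 0.05. The count at an unadjusted p under 0.05, 4 as reported, was 3 with quantile normalization and without the mean-dependent prior and 5 with the replicate block. Fits without 1 library assume that the lone library of a group varies like the others, and the members they called were not all the same. The block rests on shared numbers alone, since deviations of same-numbered libraries had a correlation of -0.049 across 12319 genes. The median of the SLC25 members was 0.0277 after rescaling by median ratios, 0.0286 with quantile normalization and 0.0293 after rescaling without genes of the mitochondrial genome. Those scalings move the median of all genes from -0.012 to between -0.00056 and 0.0010. Under the first and the last, the difference of summed levels was -0.490% and -0.381% for metals, -0.518% and -0.404% for amino acids and -0.265% and -0.154% for SLC25. Without 1 library, medians lay from -0.029 to 0.0043 for the members, from -0.065 to -0.030 for amino acids, from -0.0019 to 0.033 for SLC25 and from -0.065 to -0.012 for metals. Single fold changes (log2) lay from -0.078 (without KO+OE replicate 1; -0.015 without control replicate 2) to 0.45 for SLC30A5, and from -0.24 to 0.016 for SLC25A33, positive without control replicate 1 only. SLC39A3 missed the unadjusted threshold also with quantile normalization and without the mean-dependent prior. Depth is unknown, and 2 libraries a group limit what could be called.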
